A study of Mus musculus with 12 samples.

Results

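The subject was the early transcript response of IRAK4 kinase-dead macrophages, measured as the comparison of kinase-dead cells after 1 h of lipopolysaccharide (LPS) with kinase-dead cells without LPS. Its members were the arrays that the labels place in these 2 groups, 2 arrays each, so 4 of the 12 arrays of the series. The series profiled bone marrow macrophages of IRAK4 kinase-dead (KD) and wild-type (WT) mice on 1-colour expression arrays. Each strain was sampled after 1 h and after 4 h with LPS at 1 µg/ml and after 4 h with no treatment, and each of these 6 groups had 2 replicates. All cells were grown in a macrophage serum-free medium to which fetal calf serum had been added, with L-929 conditioned medium as a source of the growth factor M-CSF. The labels do not state which mutation makes IRAK4 kinase-dead, nor whether the replicates came from separate animals, so p-values cover the array-to-array spread within groups, which may be technical. The unstimulated KD cells had been cultured for 4 h and the LPS-treated KD cells for 1 h, so LPS and time in culture differ together and cannot be told apart.

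IRAK4 is a serine/threonine kinase that binds the adaptor MyD88 when Toll-like or interleukin-1 receptors are engaged, in a complex that leads to NF-κB and MAP kinases. LPS is sensed by Toll-like receptor 4, which also signals through the adaptor TRIF, a route to type I interferon that does not run through MyD88. A kinase-dead allele removes the catalytic activity of IRAK4 and can leave its role as a scaffold, and the comparison asks which early transcripts still change without that activity.

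All 22 genes of the macrophage list passed the filter on low signal, and 0 lay under the array median on all 4 KD arrays. Csf1r, the M-CSF receptor, had signals of 5313 and 5301 in KD cells after 1 h of LPS and 6060.3 and 4803 in unstimulated KD cells. Of the other cell types searched for, 2 of 7 T and NK cell markers, 2 of 6 B cell markers, 3 of 10 neutrophil markers, 1 of 6 dendritic cell markers, 2 of 5 erythroid markers and 3 of 8 mast cell and basophil markers passed that filter, and 0 of these were called. Of the T and NK cell list 5, of the neutrophil list 6 and of the dendritic cell list 5 lay under the array median on all 4 KD arrays. The neutrophil gene S100a8 was the brightest of these, on a probe set that can match other transcripts. It had signals of 1888 and 2390.2 in KD cells after 1 h of LPS and 1761 and 1946 in unstimulated KD cells. Of 15 stromal cell markers, 14 passed the filter, and they are described beside the strain differences. The summed signal of the 3 tested neutrophil markers was 1969 and 2441 in KD cells after 1 h of LPS and 1825 and 1981 in unstimulated KD cells, against 929 and 886.5 in WT cells after 1 h of LPS and 830.5 and 791 in unstimulated WT cells. Most of each sum was the signal of S100a8 alone, which was 867.9 and 816.9 in WT cells after 1 h of LPS and 768.9 and 742 without. The neutrophil gene S100a9 lay between 4.4 and 18.5 on the 4 KD arrays and did not pass the filter. The part of S100a8 or of this sum in the differences between the strains was not tested. There were 0 probe sets annotated to Irak4, so its transcript gave no check of the strain labels. KD unstimulated replicate 1 had the highest log2 ratio of 3' to 5' control signals, at 1.35 for Gapdh and 3.04 for Actb, against 0.807 to 1.17 and 2.22 to 2.85 on the other 11 arrays.

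KD macrophages kept a broad response at 1 h. The chemokine genes Cxcl1 and Cxcl2, the cytokine genes Tnf, Il10 and Il1b, immediate early transcription factors and the feedback inhibitors Tnfaip3, Socs3 and Dusp5 rose. Txnip, Tmeff1, Map3k1 and Dusp6 were among the genes that fell, and the largest decreases were mostly in dim transcripts. Signals are MAS5 intensities on a linear scale with each array scaled to the same trimmed mean, and a change is the difference of log2(signal + 4.4), LPS minus unstimulated, which understates the fold of dim genes. A gene was called at an adjusted p under 0.05 by limma, fitted on all 12 arrays with Benjamini-Hochberg adjustment. Of 12914 genes tested, 475 were called higher (3.68%) and 389 lower (3.01%), together 6.69%, in KD cells after 1 h of LPS than in unstimulated KD cells. Among them, 223 higher and 62 lower genes changed at least 2-fold, and the median log2 change of all genes was -0.018. By the plainer criterion that both LPS arrays lay outside both unstimulated arrays, 21.9% of all genes were higher and 24.7% were lower, so such separation alone is common. Leaving out 1 array at a time, 207 genes were called higher and 95 lower in all 12 fits. Over probe sets the calls numbered 886 higher (3.17%) and 641 lower (2.29%), together 5.47% of 27931, and scaling the arrays to the same median turned this split to 723 higher and 793 lower. The 1527 calls became 818 when KD LPS 1 h replicate 1 was left out, 905 with replicate 2 of that group left out and 1009 without KD unstimulated replicate 2. Without KD unstimulated replicate 1, the array with the highest 3' to 5' ratio, there were 1413 calls, of which 975 were higher and 438 lower.

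The largest increase was that of Cxcl1, a neutrophil-attracting chemokine. Its signal was 4733 and 4555 in KD cells after 1 h of LPS and 112 and 71.6 in unstimulated KD cells, a log2 change of 5.62 ± 0.14 (SE, adjusted p = 2.05e-15) by limma. Both LPS arrays were far above both unstimulated arrays. The 20 genes with the largest increases were taken from called genes whose groups did not overlap. All 20 were called in each of the 12 fits with 1 array left out. Of these, 5 had unstimulated signals under the array median on both arrays, and their fold changes depend on the pseudocount of 4.4 more than those of bright genes do. The median signal of the 20 was 722 in KD cells after 1 h of LPS and 79.3 in unstimulated KD cells.

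**Figure D1:**
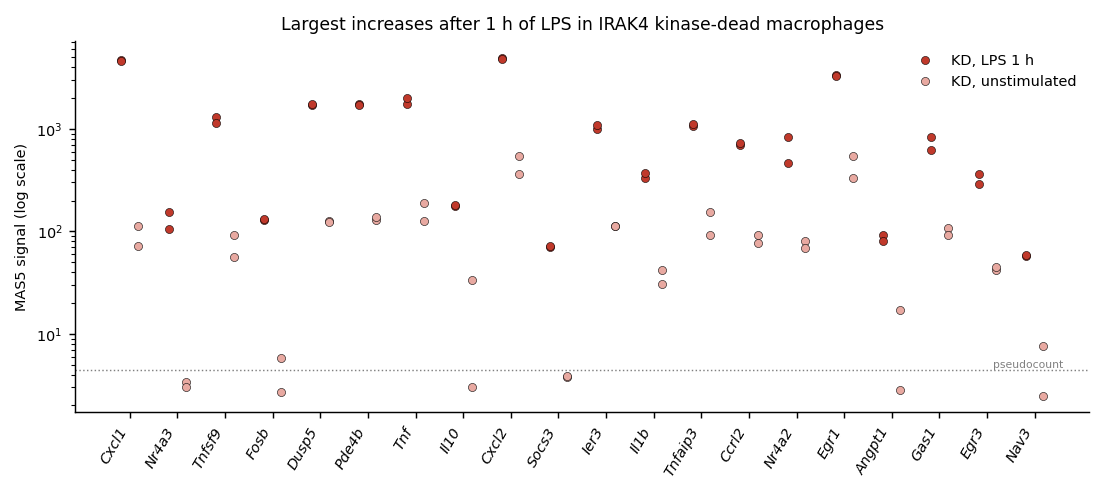
MAS5 signal on a log axis of the 20 genes with the largest increase, with 1 point per array (2 KD arrays after 1 h of LPS in dark red, 2 unstimulated KD arrays in pale red) and the pseudocount of 4.4 as a dotted line. Log2 changes ran from 5.62 for Cxcl1 to 2.78 for Nav3. The 20 were chosen among called genes whose groups did not overlap, so the separation of the arrays was fixed by that choice.

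Cxcl1 and Cxcl2 were the chemokine genes among the 20 largest increases. Of 25 chemokine genes tested, 10 rose and 0 fell, with a median log2 change of 0.72 against -0.018 over all genes. Cxcl2, a neutrophil chemokine like Cxcl1, had signals of 4960.0 and 4844 in KD cells after 1 h of LPS and 366 and 541 in unstimulated KD cells, a log2 change of 3.45 ± 0.13 (SE, adjusted p = 1.80e-12) by limma. Cxcl3, of the same family, had 398 and 460.3 after 1 h of LPS and 92.5 and 122 without (log2 change 1.97 ± 0.16 SE, adjusted p = 1.01e-07). The groups did not overlap for either gene. The monocyte chemokine genes Ccl2 and Ccl7 rose by log2 changes of 1.51 and 2.02, and Cxcl5 by 1.74. Interferon-responsive Cxcl10 rose by 1.38, while the lymphocyte chemokine Ccl5, with a log2 change of 0.32, was not called.

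The promoters of the Cxcl1, Cxcl2 and Cxcl3 genes, which lie close together on chromosome 5, are shown because these genes rose together and hold the same stretch of letters. Sequences are the 250 bases before the start site from RefSeq (GRCm38.p6), 5' to 3' on the gene's strand, with matches to the NF-κB consensus in capitals.
Cxcl1, chr5:90890995-90891244, plus strand: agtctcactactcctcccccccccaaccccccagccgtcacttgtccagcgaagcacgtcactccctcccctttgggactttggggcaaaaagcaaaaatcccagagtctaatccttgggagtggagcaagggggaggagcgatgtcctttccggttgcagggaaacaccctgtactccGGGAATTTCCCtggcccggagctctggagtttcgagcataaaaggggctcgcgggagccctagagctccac
Cxcl2, chr5:90903649-90903898, plus strand: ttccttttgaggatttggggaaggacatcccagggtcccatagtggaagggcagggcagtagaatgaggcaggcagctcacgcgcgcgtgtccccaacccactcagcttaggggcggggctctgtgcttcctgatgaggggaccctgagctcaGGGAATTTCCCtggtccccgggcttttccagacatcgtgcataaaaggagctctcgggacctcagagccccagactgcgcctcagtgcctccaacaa
Cxcl3, chr5:90785851-90786100, plus strand: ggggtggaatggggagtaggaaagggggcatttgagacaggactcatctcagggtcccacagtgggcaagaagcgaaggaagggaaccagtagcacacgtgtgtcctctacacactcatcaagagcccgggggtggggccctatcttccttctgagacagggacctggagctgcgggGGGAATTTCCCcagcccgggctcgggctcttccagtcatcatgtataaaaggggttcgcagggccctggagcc
The 11 capitals GGGAATTTCCC were the same in all 3 and matched the consensus on both strands, at overlapping positions. Counted from the start site, with -1 as the last base before it, the first match began at -71 in Cxcl1, -97 in Cxcl2 and -73 in Cxcl3. A match of letters is a description of the window and not evidence that a factor binds there.

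Of 23 cytokine genes tested, 7 rose and 0 fell (median log2 change 0.50): Tnfsf9, Tnf, Il10, Il1b, Il6, Osm and Il1a. Tnf, which encodes tumour necrosis factor, had signals of 1748 and 1986 in KD cells after 1 h of LPS and 127 and 190.1 in unstimulated KD cells, a log2 change of 3.55 ± 0.14 (SE, adjusted p = 3.64e-12) by limma. Il1b, which encodes interleukin-1β, had 334 and 372 after 1 h of LPS and 30.8 and 41.6 without (log2 change 3.15 ± 0.18 SE, adjusted p = 9.55e-10). Tnfsf9, the ligand of the co-stimulatory receptor 4-1BB, had 1317 and 1142 after 1 h of LPS and 92.6 and 56.4 without (log2 change 4.00 ± 0.24 SE, adjusted p = 1.13e-09). For these 3 genes both LPS arrays exceeded both unstimulated arrays several-fold. Il10, an anti-inflammatory cytokine, had 176 and 180.2 after 1 h of LPS, and its unstimulated KD arrays differed widely at 3.0 and 33.2 (log2 change 3.45 ± 0.51 SE, adjusted p = 2.33e-04). Il6 and the gp130 cytokine gene Osm rose by log2 changes of 2.42 and 2.38. Il6 had 41.4 and 37.9 after 1 h of LPS and 7.7 and 1.2 without, and Osm had 205 and 250.3 after 1 h of LPS and 42.6 and 37.8 without. The interferon gene Ifnb1 had a log2 change of 0.39 and was not called.

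Among 34 cytokine and chemokine receptors, 3 rose and 2 fell (median 0.053, or -0.0052 with the arrays scaled to the same median). Ccrl2, an atypical chemerin-binding receptor, had signals of 697 and 734 in KD cells after 1 h of LPS and 76.2 and 92.1 in unstimulated KD cells, a log2 change of 3.03 ± 0.15 (SE, adjusted p = 1.07e-10) by limma. Il1r1, the signalling receptor for interleukin-1, rose by 1.28, and the death receptor Fas by 0.87. Tgfbr1, a receptor kinase for TGF-β, fell by 0.43 on the log2 scale, and Csf2rb, the shared β chain of the GM-CSF receptor, by 0.36.

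The immediate early list was made up of transcription factor genes and some genes of other kinds, such as Ier3 and Btg2. Of its 39 genes tested, 20 rose in KD cells after 1 h of LPS and 2 fell (median log2 change 0.60). The higher count was lowest, at 14, without KD LPS 1 h replicate 2. Nr4a3, an orphan nuclear receptor, had signals of 106 and 155 in KD cells after 1 h of LPS and 3.4 and 3.0 in unstimulated KD cells, a log2 change of 4.12 ± 0.40 (SE, adjusted p = 1.57e-06) by limma. Fosb, an AP-1 subunit, had 129.5 and 132 after 1 h of LPS and 5.8 and 2.7 without (log2 change 3.99 ± 0.63 SE, adjusted p = 4.63e-04). Egr1, a zinc finger factor induced by growth factor signalling, had 3371 and 3285 after 1 h of LPS and 545 and 335 without (log2 change 2.95 ± 0.16 SE, adjusted p = 3.00e-10). The first 2 genes were near or under the pseudocount without LPS, while Egr1 was expressed in both groups and clearly separated. The other probe set of Nr4a3, which was dimmer, gave 0.20 and was not called. Ier3, Nr4a2 and Egr3 rose by log2 changes of 3.15, 3.00 and 2.79, and of the 4 other probe sets of Nr4a2, 2 were called higher and 2 were not called.

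Other classical members of that list had small changes or were not called. Fos, another AP-1 subunit, had 2537 and 2914 in KD cells after 1 h of LPS and 1773 and 2049 in unstimulated KD cells, a log2 change of only 0.51 that was called. Egr2 had 2438 and 2386 after 1 h of LPS and 2459 and 2449.9 without, and its log2 change of -0.025 was not called. Jun, Jund and Ier5 had log2 changes of -0.031, 0.054 and 0.25 and were not called. The 2 members that fell, like the preceding 3 named after their values were seen, were Atf3, a stress-induced bZIP factor, with 1252 and 1149 after 1 h of LPS and 2047 and 2067 without (log2 change -0.78 ± 0.10 SE, adjusted p = 7.17e-05), and Cebpd, which fell by 0.66 on the log2 scale.

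Of 16 genes of MAP kinase phosphatases and ERK feedback, which switch off MAP kinases, 5 rose, 1 fell and 10 were not called (median log2 change 0.22). Dusp5, a nuclear ERK phosphatase, had signals of 1704 and 1735 in KD cells after 1 h of LPS and 125 and 124 in unstimulated KD cells, a log2 change of 3.74 ± 0.15 (SE, adjusted p = 3.05e-12) by limma, with closely matched replicates. Dusp8, Dusp10 and Dusp1, which act mainly on JNK and p38, rose by 1.52, 1.34 and 1.11, and Dusp4 by 0.55. Dusp6, a cytoplasmic ERK phosphatase, moved the other way, with 651 and 698 after 1 h of LPS and 1130.5 and 1206 without (log2 change -0.79 ± 0.13 SE, adjusted p = 5.30e-04). The groups of Dusp6 did not overlap.

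The Dusp5 promoter is shown because 2 matches to the serum response element, or CArG box, the binding site of the factor SRF, stand side by side in it. The 250 bases before its start site (RefSeq, GRCm38.p6) were as follows, with the matches in capitals.
Dusp5, chr19:53528895-53529144, plus strand: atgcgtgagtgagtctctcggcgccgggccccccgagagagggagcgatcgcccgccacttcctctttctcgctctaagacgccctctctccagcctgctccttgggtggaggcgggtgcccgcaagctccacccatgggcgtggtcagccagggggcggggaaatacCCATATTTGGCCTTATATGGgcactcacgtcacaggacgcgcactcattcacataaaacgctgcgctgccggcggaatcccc
The first match ran between -82 and -73 and the second between -72 and -63, each read on both strands. A CArG box stood in the windows of 1.62% of the tested genes that had a window.

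Of the NF-κB subunits and IκB proteins, 8 of 13 rose and 0 fell (median log2 change 1.01), and 5 were called without KD LPS 1 h replicate 1. Nfkbiz, a nuclear IκB protein needed for a second wave of cytokine genes, had signals of 2410.4 and 2269.6 in KD cells after 1 h of LPS and 499.8 and 611 in unstimulated KD cells, a log2 change of 2.07 ± 0.11 (SE, adjusted p = 2.79e-10) by limma. Nfkbia, the IκBα gene, had 6529 and 6553 after 1 h of LPS and 3279 and 3095 without (log2 change 1.04 ± 0.09 SE, adjusted p = 3.11e-07). Both groups were well apart for both genes. The probe set printed for Nfkbia is its brightest, and the other 4 were called higher too, with log2 changes of 1.09, 1.80, 2.67 and 2.75. Nfkbie, Nfkbid and Bcl3 rose by 1.71, 1.67 and 1.28, and the subunit gene Relb by 1.01.

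Among 16 A20 and other NF-κB feedback genes, 4 rose and 0 fell, and the median was -0.011. Tnfaip3, which encodes the ubiquitin-editing enzyme A20, had signals of 1059 and 1109 in KD cells after 1 h of LPS and 91.9 and 153 in unstimulated KD cells, a log2 change of 3.14 ± 0.16 (SE, adjusted p = 1.38e-10) by limma. The adaptor gene Traf1, the ubiquitin ligase gene Birc3 and Tnfaip2 rose by 1.51, 1.36 and 0.85. Tnip1, an A20-binding protein, had 611 and 666 after 1 h of LPS and 535 and 656 without and was not called. Its groups overlapped.

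The 250 bases before the start of 1 of 2 annotated Tnfaip3 start sites (RefSeq, GRCm38.p6) are shown because they held NF-κB consensus matches, in capitals, that differ in letters from those of the chemokine genes.
Tnfaip3, chr10:19015411-19015660, minus strand: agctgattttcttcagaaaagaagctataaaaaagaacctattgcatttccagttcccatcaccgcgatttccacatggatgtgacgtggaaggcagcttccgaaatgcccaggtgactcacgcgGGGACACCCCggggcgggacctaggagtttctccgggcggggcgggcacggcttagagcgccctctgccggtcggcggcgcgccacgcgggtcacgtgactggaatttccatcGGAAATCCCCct
These began at -125 and at -12.

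Genes whose products destabilise cytokine transcripts were raised in part: of 21 regulators of cytokine mRNA decay, 3 rose and 1 fell. Zfp36, which encodes tristetraprolin, had signals of 1742 and 1849.6 in KD cells after 1 h of LPS and 273 and 268 in unstimulated KD cells, a log2 change of 2.71 ± 0.11 (SE, adjusted p = 7.62e-12) by limma. The related Zfp36l1 had 1888 and 1844 after 1 h of LPS and 821 and 647 without (log2 change 1.35 ± 0.11 SE, adjusted p = 1.63e-07). Zc3h12a, the ribonuclease regnase-1, rose by 1.77, and Rc3h1, which encodes roquin-1, fell by 0.52. The median of that list was 0.025, or -0.033 with the arrays scaled to the same median.

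Interferon-induced genes were the list with the most members called, at 56.8% of those tested against 6.69% of all genes. By share, the shorter NF-κB and IκB list stood higher, at 61.5%, and the immediate early list was close, at 56.4%. Of 44 interferon-induced genes tested, 24 rose and 1 fell (median log2 change 0.58), with 17 higher without KD LPS 1 h replicate 2. Ifit1, an inhibitor of viral RNA translation, had signals of 555 and 490.2 in KD cells after 1 h of LPS and 116 and 90.6 in unstimulated KD cells, a log2 change of 2.29 ± 0.14 (SE, adjusted p = 1.71e-09) by limma. Ifit3 had 214 and 242 after 1 h of LPS and 55.5 and 71.1 without (log2 change 1.78 ± 0.18 SE, adjusted p = 2.39e-06). Rsad2, the antiviral enzyme viperin, had 968 and 1020.2 after 1 h of LPS and 410.1 and 353 without (log2 change 1.38 ± 0.11 SE, adjusted p = 7.56e-08). In each of these the groups did not overlap. Iigp1, Ifit2 and Ifi204 rose by 1.51, 1.33 and 1.16. Irf8, a lineage factor of macrophages that is also on that list, was the member that fell, by 0.51 on the log2 scale.

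The Ifit1 and Ifit3 promoters are shown because both held 2 copies of the core of the interferon-stimulated response element (GAAA, any 2 bases, GAAA), which appears in capitals on the printed strand as its reverse complement.
Ifit1, chr19:34640639-34640888, plus strand: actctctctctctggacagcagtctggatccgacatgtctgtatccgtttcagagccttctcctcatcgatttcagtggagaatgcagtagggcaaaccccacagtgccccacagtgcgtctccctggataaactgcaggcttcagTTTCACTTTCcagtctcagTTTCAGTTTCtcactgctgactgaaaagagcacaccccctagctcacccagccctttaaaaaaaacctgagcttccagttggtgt
Ifit3, chr19:34583279-34583528, plus strand: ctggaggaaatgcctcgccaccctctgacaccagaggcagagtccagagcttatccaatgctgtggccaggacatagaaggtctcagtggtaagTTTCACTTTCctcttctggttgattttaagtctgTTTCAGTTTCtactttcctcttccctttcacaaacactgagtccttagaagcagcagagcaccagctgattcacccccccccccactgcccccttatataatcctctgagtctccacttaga
The letters TTTCACTTTC and TTTCAGTTTC occurred in that order in both windows, beginning at -104 and -85 in Ifit1 and at -156 and -122 in Ifit3. The annotated Ifit3 gene begins at 34583119, so its window lies inside the gene, before an internal start site. That core stood in the windows of 3.77% of the tested genes that had a window.

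Inflammatory enzymes and effectors gave 13 higher and 0 lower of 33 (median log2 change 0.37). Ptgs2, the inducible cyclooxygenase, had signals of 4152 and 4244 in KD cells after 1 h of LPS and 1074 and 985 in unstimulated KD cells, a log2 change of 2.02 ± 0.089 (SE, adjusted p = 1.15e-11) by limma. Acod1, which makes itaconate, had 2971 and 2813 after 1 h of LPS and 656 and 673 without (log2 change 2.11 ± 0.089 SE, adjusted p = 7.62e-12). Nlrp3, an inflammasome sensor, had 239.5 and 312 after 1 h of LPS and 39.0 and 43.3 without (log2 change 2.61 ± 0.20 SE, adjusted p = 7.56e-08). All 3 were clearly separated. Pim1, a survival kinase, and Vegfa, an angiogenic factor, rose by 2.33 and 1.44. Mmp14, a membrane-bound metalloprotease, rose by 1.41 on a dim probe set, while its next probe set gave -0.49 and was not called. Nos2, the inducible nitric oxide synthase, was under the pseudocount on both KD arrays after 1 h of LPS and was not called.

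Of 35 genes for adhesion, co-stimulation and lectin receptors, 12 rose and 0 fell (median 0.35). Cd69, an early activation marker, had 461 and 527 in KD cells after 1 h of LPS and 109 and 85.6 in unstimulated KD cells, a log2 change of 2.30 ± 0.15 (SE, adjusted p = 7.83e-09) by limma, and Cd83 had 2966 and 3035 after 1 h of LPS and 806 and 925 without (log2 change 1.79 ± 0.10 SE, adjusted p = 7.46e-10). Trem1, Olr1 and Vcam1 rose by 1.56, 1.41 and 1.29. Itga5 was called at 1.29 on the probe set used, but its brightest probe set, which can match other transcripts, gave -0.064 and was not called.

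Of 29 genes for cyclic AMP, RGS and G protein-coupled receptor signalling, 7 rose and 2 fell (median -0.0052, or 0.014 after quantile normalization). Pde4b, a phosphodiesterase that breaks down cyclic AMP, had signals of 1734 and 1706 in KD cells after 1 h of LPS and 129.7 and 138 in unstimulated KD cells, a log2 change of 3.64 ± 0.11 (SE, adjusted p = 3.72e-14) by limma. The small GTPase gene Gem and the receptor genes Gpr84, Gpr65 and Fpr2 rose by 2.25, 1.76, 1.41 and 0.79. S1pr2, a sphingosine-1-phosphate receptor, fell to 348 and 409 after 1 h of LPS, against 659 and 676 without (log2 change -0.81 ± 0.12 SE, adjusted p = 3.41e-04).

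**Figure D2:**
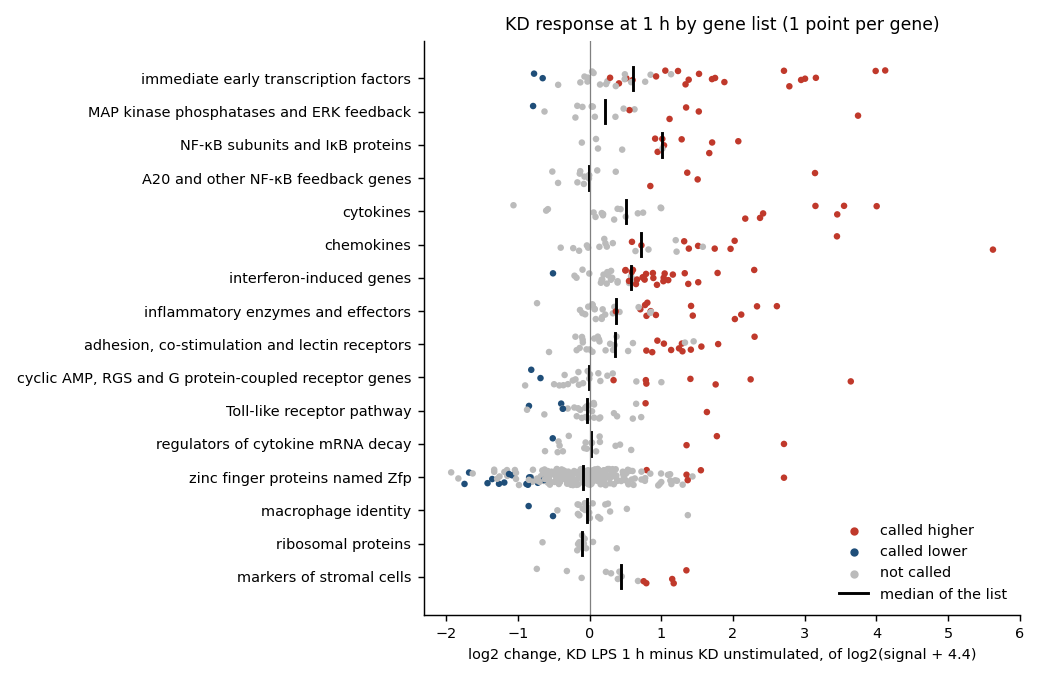
Log2 change in KD cells, LPS 1 h minus unstimulated, with 1 point per tested gene in 16 of the gene lists, coloured by call, and the median of each list as a black bar. The NF-κB and IκB list had the highest median of those drawn, at 1.01, and the ribosomal protein list, at -0.11, had 0 members called.

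Counts of the smaller groups were the least steady when 1 array was left out, a check added after the data were seen. Without KD LPS 1 h replicate 2, 0 receptor genes were called lower, 1 Toll-like receptor pathway gene higher and 1 cyclic AMP or receptor signalling gene lower. Without KD unstimulated replicate 1 the higher counts were 1 for the sterol list, 1 for the cell cycle list and 0 for glycolysis, and 1 immediate early gene was called lower. Without KD unstimulated replicate 2, 1 Toll-like receptor pathway gene and 0 mRNA decay genes were called lower. Without KD unstimulated replicate 1, 17 immediate early, 9 cytokine, 12 chemokine and 18 interferon-induced genes were called higher. Second, dimmer probe sets of Tnfaip3, Dusp10, Pim1, Zc3h12a, Vegfa, Bcl2l11, Prrx1 and Ret were tested and not called for the KD change. Single decreases were lost in most fits with 1 array left out, among them that without WT unstimulated replicate 1 for the apoptosis and sterol lists. The call held in only 4 of the 12 fits for Pmaip1 and 3 for Abcg1. It held in 4 for Irf8, of the interferon and macrophage lists, and was lost without WT LPS 4 h replicate 1 among others.

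Of 30 genes of the Toll-like receptor pathway, the receptors, adaptors and kinases that carry the LPS signal, 2 rose and 3 fell (median -0.037), so 16.7% were called against 6.69% of all genes. Tlr2, the receptor for bacterial lipopeptides, had signals of 529 and 501 in KD cells after 1 h of LPS and 156 and 170.0 in unstimulated KD cells, a log2 change of 1.64 ± 0.13 (SE, adjusted p = 7.56e-08) by limma. Tirap, which bridges TLR4 to MyD88, had 429.5 and 409.9 after 1 h of LPS and 689 and 834 without (log2 change -0.85 ± 0.12 SE, adjusted p = 1.65e-04). Map3k8, the kinase TPL2, rose by 0.78. Tlr4 itself fell by 0.40 on the log2 scale on the probe set used, and the next probe set gave 0.12 and was not called. The TLR homologue Cd180 fell by 0.37.

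Of 20 MAP kinase cascade genes, 2 rose and 1 fell, and neither Map2k6 (log2 change 1.03) nor Map3k5 (0.33) was called without KD unstimulated replicate 1. Map3k1, an upstream kinase of JNK and ERK, had signals of 665 and 848 in KD cells after 1 h of LPS and 1484 and 2018 in unstimulated KD cells, a log2 change of -1.20 ± 0.14 (SE, adjusted p = 1.83e-05) by limma. Of 15 SOCS and JAK-STAT genes, 1 rose and 1 fell. Socs3, an inhibitor of gp130 signalling, had 70.5 and 71.6 after 1 h of LPS and 3.8 and 3.9 without (log2 change 3.19 ± 0.34 SE, adjusted p = 5.11e-06), and Socs5 had 83.0 and 70.3 after 1 h of LPS and 155 and 158 without (log2 change -0.996 ± 0.19 SE, adjusted p = 0.00259). Both pairs of groups were separate. On the probe set printed, Socs3 was under the pseudocount in unstimulated KD cells, while its other 2 probe sets, which were brighter and can match other transcripts, gave larger called log2 changes of 5.80 and 4.20. The other probe set of Socs5 gave -0.077 and was not called.

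Stress and survival genes moved in small numbers. Of 17 apoptosis and survival genes, 4 rose and 1 fell: Phlda1, Sgk1, Bcl2l11 and Cflar rose by 1.47, 0.75, 0.64 and 0.59, and the BH3-only gene Pmaip1 fell by 0.46. Of 18 genes of the unfolded protein and integrated stress response, 2 rose and 1 fell. Ppp1r15a, which encodes the phosphatase subunit GADD34, had signals of 105 and 167 in KD cells after 1 h of LPS and 34.4 and 22.0 in unstimulated KD cells, a log2 change of 2.10 ± 0.28 (SE, adjusted p = 9.39e-05) by limma. Atf4 rose by 0.60, and Asns, which makes asparagine, fell by 0.61. Of 18 heat shock and oxidative stress genes, 5 rose, led by Nqo1 at 0.76 and Hspa1b at 0.53, and 2 were called without KD LPS 1 h replicate 1. Sterol and lipid genes gave 2 higher (Scd1 at 0.91 and Insig1 at 0.39) and 1 lower (Abcg1) of 24. Glycolysis and hypoxia genes gave 1 higher of 19, the hexokinase gene Hk2 at 0.53. Cell cycle genes gave 2 higher of 30, Mcm3 at 1.02 and Mcm4 at 0.67, subunits of the replicative helicase. Of 22 macrophage identity genes, 0 rose and 2 fell, and of 15 ribosomal protein genes 0 were called. The share called was 6.67% for cell cycle, 5.26% for glycolysis and hypoxia and 9.09% for macrophage identity genes. These shares lay near the 6.69% called over all genes. Sterol and lipid genes had 12.5% called, and the unfolded protein and integrated stress response 16.7%. Heat shock and oxidative stress genes had 27.8% called, and apoptosis and survival genes 29.4%. Cebpa, a myeloid lineage factor, fell to 953 and 1079 after 1 h of LPS, against 2030.1 and 1656 without (log2 change -0.85 ± 0.12 SE, adjusted p = 2.03e-04).

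The letters of the promoter windows were compared over the strongest responders. Windows ran between 250 bases before and 50 bases after a start site, and 10403 of the 12914 tested genes had at least 1. A gene was counted if any of its windows held the motif on either strand. The set comprised 138 genes that rose at least 2-fold and were called in all 12 fits with 1 array left out, of which 103 had a window. The NF-κB consensus stood in 28.2% of them, against 12.5% of the tested genes, and the AP-1 motif TGANTCA in 16.5% against 6.79%. The core of the interferon-stimulated response element stood in 9.71% against 3.77%, the cyclic AMP response element TGACGTCA in 4.85% against 3.4%, and the CArG box in 2.91% against 1.62%. Over 78 genes with a window that were called lower in all 12 fits, the NF-κB consensus stood in 7.69% and TGANTCA in 1.28%. Of the risers, 66 with a window were also called higher in WT cells and 37 were not called in WT cells. The NF-κB consensus stood in 31.8% of the 66 and 21.6% of the 37, TGANTCA in 18.2% and 13.5%, the interferon-stimulated core in 15.2% and 0%, TGACGTCA in 7.58% and 0%, and the CArG box in 3.03% and 2.7%. No test was made of these shares, and genes with several windows had more chances of a match.

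The strongest decreases were in dimmer transcripts than the strongest increases. The 20 with the largest decrease were likewise taken from called genes whose groups did not overlap. Of these, 12 lay under the array median on both KD arrays after LPS. The median signal of the 20 was 14.1 in KD cells after 1 h of LPS and 62.1 in unstimulated KD cells. Only 6 of the 20 were called in all 12 fits: Prmt2, 9330175E14Rik, Ret, Tmeff1, Txnip and Slco4a1. Txnip, an arrestin family protein that binds thioredoxin and limits glucose uptake, had signals of 1236 and 1143 in KD cells after 1 h of LPS and 3747 and 2721 in unstimulated KD cells, a log2 change of -1.42 ± 0.12 (SE, adjusted p = 2.70e-07) by limma. Tmeff1, a transmembrane protein with follistatin-like domains, had 394 and 385 after 1 h of LPS and 972 and 1352 without (log2 change -1.55 ± 0.15 SE, adjusted p = 1.41e-06). Prmt2, an arginine methyltransferase, had 15.1 and 25.4 after 1 h of LPS and 88.7 and 93.9 without (log2 change -1.99 ± 0.27 SE, adjusted p = 9.56e-05). The groups of these 3 genes did not overlap, by that choice, and the 2 unstimulated arrays of Txnip were themselves well apart. A brighter probe set of Prmt2 that can match other transcripts gave a smaller called change of -0.60. Ret, a receptor tyrosine kinase, and Slco4a1, an organic anion transporter, fell by 1.56 and 1.39.

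The largest decreases of all rested on signals near the pseudocount. Kif23, a mitotic kinesin, had 10.1 and 4.2 in KD cells after 1 h of LPS and 41.4 and 94.1 in unstimulated KD cells, a log2 change of -2.59 ± 0.70 (SE, adjusted p = 0.0346) by limma. Crct1 had 1.9 and 2.6 after 1 h of LPS and 33.7 and 31.6 without (log2 change -2.48 ± 0.71 SE, adjusted p = 0.0481). Kif23 was called in 7 of the 12 fits with 1 array left out and Crct1 in 2. Ly6e fell by 1.99 on a dim probe set, while its bright probe set, which can match other transcripts, changed by 0.047 and was not called.

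Of 284 zinc finger genes named Zfp that were tested, 5 rose and 14 fell (median log2 change -0.097). The share called was 6.69%, the same as over all genes, and the lower count was 7 without KD unstimulated replicate 2. Zfp40 and Zfp189, both dim, fell by 1.75 and 1.68, with Zfp40 at 8.9 and 18.6 in KD cells after 1 h of LPS and 70.6 and 41.5 in unstimulated KD cells. The risers included Zfp36 and Zfp36l1, which bind RNA and are unlike the DNA-binding members of that list, and Zfp703, which rose by 1.37.

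What KD cells kept or lost was measured against the WT comparison at 1 h, which shares no arrays with that of KD. WT cells had 425 genes called higher (3.29%) and 502 lower (3.89%) after 1 h of LPS. Of the 146 that rose at least 2-fold in WT cells, 114 (78.1%) were also called higher in KD cells, and their median log2 change was 1.36 in KD and 1.66 in WT, the strain in which they were chosen. At 4-fold in WT the count was 51 of 56 (91.1%), with medians of 2.21 in KD and 2.72 in WT. The 5 that were not called in KD were Btg2, Maff, Mefv, Mir155hg and Mki67, the last 4 named after their values were seen. Of the 223 genes that rose at least 2-fold in KD cells, 106 (47.5%) were called higher in WT. Of the 389 genes that fell in KD cells, 171 were called lower in WT, which is 44% of the KD list and 34.1% of the 502 genes of the WT list. A call in 1 strain without a call in the other does not show a difference, which the interaction of strain and LPS tested.

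The KD response differed from the WT response for 58 genes (0.449%), higher for 32 (0.248%) and lower for 26 (0.201%), by limma on the difference of the responses. Over probe sets there were 91 calls (0.326%), 49 higher (0.175%) and 42 lower (0.15%), which became 29 and 78 with the arrays scaled to the same median. The count fell to 15 when KD LPS 1 h replicate 1 or WT LPS 1 h replicate 2 was left out and to 17 for WT unstimulated replicate 1, and it was 242 when KD unstimulated replicate 1 was left out. It was 60 without KD unstimulated replicate 2 and 56 without either array of WT cells after 4 h of LPS, which enter only through the shared variance estimate. In all 12 fits, 4 genes were called with a higher and 3 with a lower KD response.

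**Figure D3:**
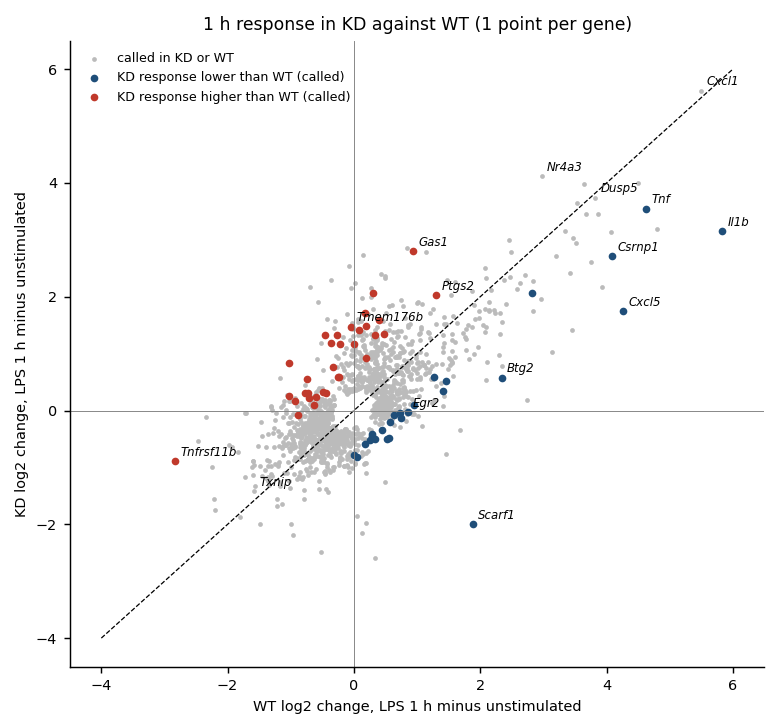
Log2 change at 1 h in KD cells (vertical axis) against that in WT cells (horizontal axis), 1 point per gene called in either strain or for the difference, with the line of equal change dashed. Cxcl1, Dusp5 and Nr4a3 lay near or above the line, and Il1b, Cxcl5 and Btg2 lay below it among the 26 genes with a lower KD response.

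The shortfalls in KD cells that were called in all 12 fits were those of Il1b, Cxcl5 and Egr2. Il1b had signals of 334 and 372 in KD cells after 1 h of LPS, 30.8 and 41.6 in unstimulated KD cells, 700.3 and 857 in WT cells after 1 h of LPS and 8.0 and 10.8 in unstimulated WT cells. Its KD response differed from that of WT by -2.68 ± 0.26 (SE, adjusted p = 6.54e-05) on the log2 scale (limma), with the unstimulated KD arrays above and the stimulated KD arrays below those of WT. Cxcl5, another neutrophil chemokine, had 73.2 and 51.2 in KD cells after 1 h of LPS, 11.7 and 19.5 in unstimulated KD cells, 873 and 688 in WT cells after 1 h of LPS and 40.7 and 32.4 in unstimulated WT cells (difference -2.51 ± 0.30 SE, adjusted p = 7.73e-04). It was lower in KD at both points. Tnf had 3128 and 3675 in WT cells after 1 h of LPS and 134 and 131 without, beside the KD values given above, and its difference of -1.08 ± 0.20 (SE, adjusted p = 0.0224) left the KD arrays below the WT arrays at 1 h and overlapping them without LPS. The call of the Tnf difference held in 7 of the 12 fits.

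Several immediate early genes shared that pattern: of the 39, 5 had a lower KD response (Btg2, Csrnp1, Fos, Egr2 and Atf3) and 0 a higher one. Btg2, an antiproliferative protein, had signals of 158 and 205 in KD cells after 1 h of LPS, 131 and 108 in unstimulated KD cells, 310.1 and 294 in WT cells after 1 h of LPS and 69.1 and 45.4 in unstimulated WT cells (difference -1.76 ± 0.31 SE, adjusted p = 0.0197). Egr2 had 3063 and 3239.6 in WT cells after 1 h of LPS and 1837 and 1660.1 in unstimulated WT cells (difference -0.87 ± 0.13 SE, adjusted p = 0.00511). Both genes were higher in unstimulated KD than in unstimulated WT cells and lower at 1 h. Csrnp1 and Fos had differences of -1.37 and -0.95, which were called in 2 and 8 of the 12 fits. Arg2, the mitochondrial arginase, had 254 and 309 in KD cells after 1 h of LPS, 218 and 222 in unstimulated KD cells, 704 and 800.1 in WT cells after 1 h of LPS and 290.1 and 268 in unstimulated WT cells (difference -1.07 ± 0.19 SE, adjusted p = 0.0192). A brighter probe set of Arg2 that can match other transcripts gave a called KD change of 0.52 and a difference of -0.69 that was not called. The other probe set of Btg2, which was dimmer, gave a difference of -0.86 and was not called, and that of Egr2 gave -1.34 and was called. Nfkbiz and Tnip1 differed by -0.75 and -0.85, which were called in 3 and 2 of the 12 fits. The next probe set of Nfkbiz gave a difference of -0.46 and was not called, and a dimmer one gave -2.165 and was called. Of all 26 genes with a lower KD response, 21 were higher in unstimulated KD than in unstimulated WT cells with no overlap, against 27.5% of all genes, and 24 were lower in KD at 1 h with no overlap, against 19.1% of all genes. Of the 26, 7 were called higher in both strains, 9 higher in WT without a call in KD, 7 lower in KD without a call in WT and 3 in opposite directions. The interaction is computed from these same arrays, so these counts describe its calls and add no evidence.

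Scarf1, a scavenger receptor, had the most negative difference, at -3.88 ± 0.75 (SE, adjusted p = 0.0287), and opposite calls in the strains, but it was dim, with signals of 6.3 and 6.6 in KD cells after 1 h of LPS and 54.6 and 49.5 in WT cells after 1 h of LPS, and was called in 4 of the 12 fits. The other genes called in opposite directions were Cnih4 and Uqcc2, lower in KD and higher in WT, and Smndc1, higher in KD and lower in WT. Their log2 changes were -0.48, -0.50 and 0.33 in KD and 0.56, 0.53 and -0.50 in WT. The KD call held in 8 of the 12 fits for Cnih4 and for Uqcc2 and in 2 for Smndc1. The next probe set of Cnih4 gave a KD change of -0.22 and a strain difference of -0.020, and that of Smndc1 gave -0.048 and -0.13, none of them called.

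Among genes with a higher KD response, the 4 called in all 12 fits were Gas1, Adam23, Tmem176b and Frrs1, the last named after its values were seen. Gas1, a growth arrest protein anchored in the membrane, had signals of 829 and 628 in KD cells after 1 h of LPS, 108 and 91.9 in unstimulated KD cells, 695 and 606 in WT cells after 1 h of LPS and 384 and 293 in unstimulated WT cells (difference 1.86 ± 0.24 SE, adjusted p = 0.00159). Adam23, a membrane-anchored disintegrin protein, had 2067 and 1814 in KD cells after 1 h of LPS, 854 and 701 in unstimulated KD cells, 1404 and 1619 in WT cells after 1 h of LPS and 2350.5 and 1846 in unstimulated WT cells (difference 1.78 ± 0.22 SE, adjusted p = 7.73e-04). Tmem176b, a membrane protein of myeloid cells, had 208 and 217 in KD cells after 1 h of LPS, 81.6 and 66.7 in unstimulated KD cells, 325 and 339 in WT cells after 1 h of LPS and 348 and 338 in unstimulated WT cells (difference 1.52 ± 0.22 SE, adjusted p = 0.00511). In these 3 genes unstimulated KD cells stood lowest of the 4 groups, and the log2 changes in WT cells were 0.94, -0.47 and -0.047. The response of Ptgs2 was higher by 0.73 with 4750.3 and 4944 in WT cells after 1 h of LPS and 2068 and 1873 without, so KD cells started lower and ended lower. A second, dimmer probe set of Ptgs2 gave a KD change of 0.76 and a strain difference of -1.17, neither of them called. Zfp36l1 and Ifit2 were higher by 0.87 and 0.99, which were called in 6 and 2 of the 12 fits. Of the 32 genes, 30 were lower in unstimulated KD than in unstimulated WT cells with no overlap, against 22.4% of all genes, and at 1 h 15 were higher in KD, 4 lower and 13 overlapping, against 25.4% of all genes higher and 19.1% lower. Of the 32, 16 were called higher in KD without a call in WT, 12 lower in WT without a call in KD and 3 higher in both.

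**Figure D4:**
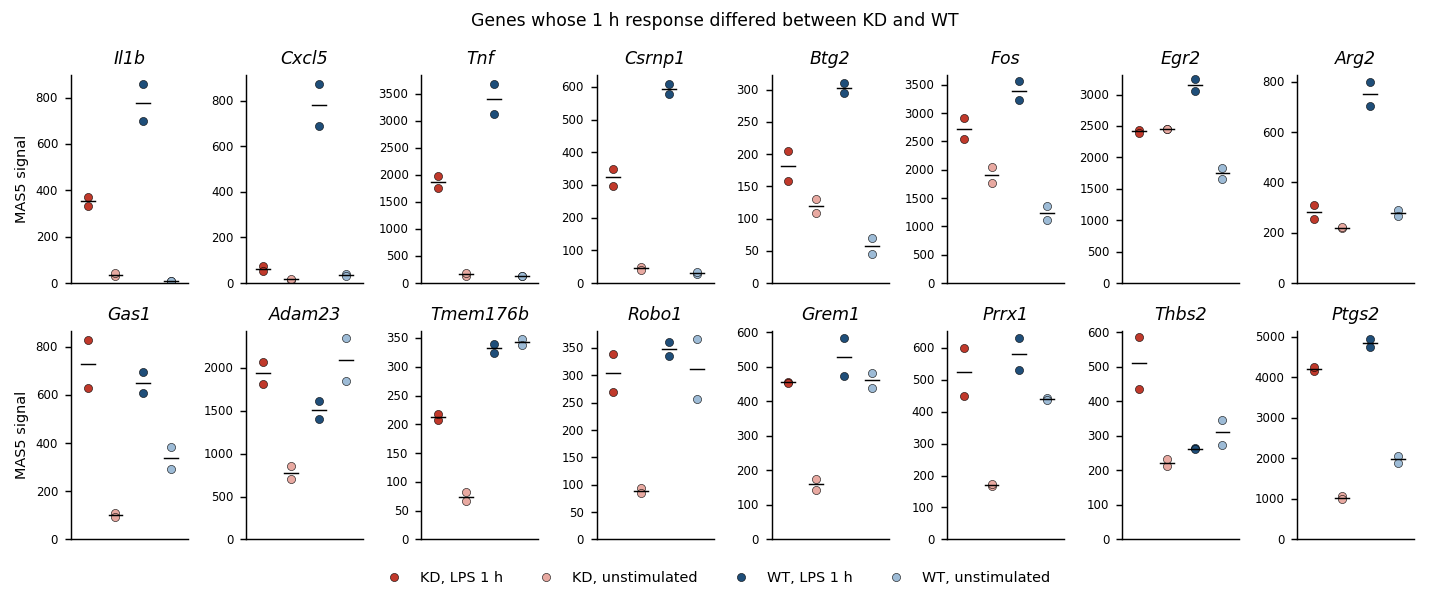
MAS5 signal of 16 genes whose 1 h response differed between the strains, with 1 point per array and a bar at the mean of each group, in the order KD LPS 1 h, KD unstimulated, WT LPS 1 h and WT unstimulated. In the upper row the KD arrays at 1 h stood below the WT arrays at 1 h, and in the lower row unstimulated KD arrays stood lowest of the 4 groups.

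The genes that rose at least 2-fold in KD cells without a call in WT cells numbered 117, and 89 of them (76.1%) had both unstimulated KD arrays under both unstimulated WT arrays, against 39 of the 106 (36.8%) called in both strains and 22.4% of all genes. At 1 h, 54 of the 117 (46.2%) were higher in KD than in WT and 18 (15.4%) lower, against 25.4% and 19.1% of all genes. The unstimulated KD arrays enter both the choice of these genes and the count, so the shares are descriptive. Grem1 and Prrx1 were among them. Grem1, a secreted BMP antagonist, had 456 and 453 in KD cells after 1 h of LPS, 175 and 144 in unstimulated KD cells, 582 and 475 in WT cells after 1 h of LPS and 439 and 484 in unstimulated WT cells. Prrx1, a mesenchymal homeobox factor, had 601 and 449 in KD cells after 1 h of LPS, 166 and 172 in unstimulated KD cells, 629.9 and 531 in WT cells after 1 h of LPS and 444 and 435 in unstimulated WT cells. Both were low in unstimulated KD cells alone. The guidance receptor gene Robo1, the matrix protein gene Thbs2 and the complement inhibitor gene Serping1 had differences of 1.53, 1.40 and 1.603. The next probe sets of Robo1 and Thbs2, both dimmer, gave differences of -1.09 and 0.079, neither of them called, and another of Thbs2 that can match other transcripts gave 2.503 and was called.

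Thbs2 is also a stromal marker, and the rest of that list is given here beside these genes. Of 14 tested, 5 rose in KD cells (Col6a1, Thbs2, Pdgfra, Col1a2 and Sparc), 9 were not called and 0 fell, with a median log2 change of 0.43, and 1 rose in WT cells. Without KD unstimulated replicate 2 the count was 3, and without KD unstimulated replicate 1 it was 7. Col6a1, a collagen VI chain, had 812 and 638 in KD cells after 1 h of LPS and 327 and 239.6 in unstimulated KD cells, a log2 change of 1.35 ± 0.16 (SE, adjusted p = 2.72e-05) by limma. Acta2, the brightest marker, on a probe set that can match other transcripts, had 1945 and 1647 after 1 h of LPS and 2534 and 1967 without, the opposite order, with no overlap and no call. The summed signal of the 14 markers was 8321 and 6789 in KD cells after 1 h of LPS and 6518 and 5132 in unstimulated KD cells. In WT cells it was 9244 and 9447 after 1 h of LPS and 9087 and 9489 without. The 2 unstimulated KD cultures thus held the lowest sums of the 8 arrays, and no stromal marker of the 15 was under 4.4 on all 4 KD arrays. The part of stromal transcripts in the KD increases of Gas1, Grem1, Prrx1, Robo1 and Thbs2 was not tested, and in a bulk sample fewer cells of a type and less RNA per cell cannot be told apart.

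Levels in KD cells after 4 h of LPS were set beside these values. That group is compared with the same unstimulated arrays, so only its signals are given. Of the 20 genes with the largest 1 h increase, 18 had both 4 h arrays under both 1 h arrays, against 30.3% of all genes, and 17 had both 4 h arrays over both unstimulated arrays, against 21.7%. They were chosen for a high signal at 1 h, which favours a lower one later. Dusp5 had 125 and 124 in unstimulated KD cells, 1704 and 1735 at 1 h and 131 and 135 at 4 h, and Egr1 had 545 and 335 in unstimulated KD cells, 3371 and 3285 at 1 h and 521 and 639 at 4 h. Cxcl1 had 112 and 71.6 in unstimulated KD cells, 4733 and 4555 at 1 h and 3419 and 3433 at 4 h, and Tnf had 127 and 190.1 in unstimulated KD cells, 1748 and 1986 at 1 h and 1625 and 1526 at 4 h. Dusp5 and Egr1 were back near their unstimulated signals at 4 h, while Cxcl1 and Tnf stayed high. The interferon-induced genes Ifit1 and Rsad2 were higher still at 4 h, with Ifit1 at 2244 and 2062 and Rsad2 at 5040.4 and 5106 against the 1 h values above. Among the 20 genes with the largest decrease, 18 had both 4 h arrays over both 1 h arrays, against 23.3% of all genes. These genes were chosen for a low signal at 1 h, which favours a higher one later. Of the 20, 3 had both 4 h arrays over both unstimulated arrays, Ret among them, against 21.7% of all genes. Another 11 had both 4 h arrays under both unstimulated arrays. That share was not counted over all genes, so the 11 are not a result about these genes. Ret had 108 and 102 in unstimulated KD cells, 25.7 and 41.2 at 1 h and 257 and 263 at 4 h, and Map3k1 had 1484 and 2018 in unstimulated KD cells, 665 and 848 at 1 h and 563 and 586 at 4 h. Ret thus ended above its unstimulated signal, and Map3k1 stayed low.

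**Figure D5:**
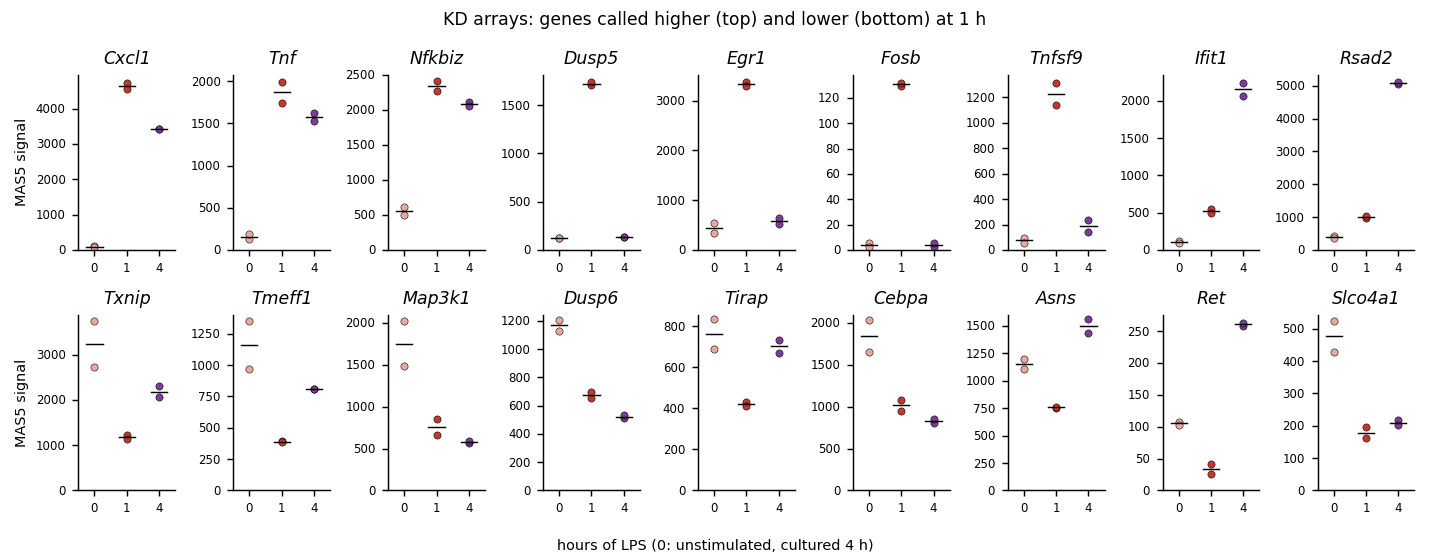
MAS5 signal in KD cells without LPS (0, cultured for 4 h), after 1 h and after 4 h of LPS, 1 point per array with a bar at the mean, for 9 genes called higher at 1 h (upper row) and 9 called lower (lower row). Dusp5, Egr1 and Fosb peaked at 1 h, Ifit1 and Rsad2 were highest at 4 h, and Map3k1 and Dusp6 were low at both times.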

How the data were processed

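Expression was measured on 1-colour arrays with 45101 probe sets, of which 64 were controls. The authors deposited intensities on a linear scale, for which the submitters' processing notes name MAS5. The table had no columns of other samples. All 12 arrays had a trimmed mean of 150 (2% left out at each end), so no further scaling was applied. The precision is limited by the number of arrays, which have no depth of reads. Array medians ran between 18.9 and 22 on the WT arrays and between 24.2 and 26.9 on the KD arrays, so the strains did not overlap. On all 12 arrays, 17.06% to 22.91% of values lay under the pseudocount.

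Probe sets above the array median on at least 2 arrays were tested (27931). The value log2(signal + 4.4), with the pseudocount at the 20th percentile of all values, was fitted with a mean for each of 6 groups by limma 3.58.1 in R 4.3.3 with a trended variance prior and Benjamini-Hochberg adjustment, called under 0.05. The procedure was checked on simulated data. GEO's platform annotation gave 1 symbol to 34958 probe sets, several to 932 and none to 9211, and 34754 of the first had an Entrez ID found in RefSeq. Each gene was read from the brightest of its tested probe sets on average, and sets whose suffix marks cross-hybridisation were used only where no other was tested.

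The members and gene lists were chosen with earlier results of these data known. Named genes were the 20 highest and 20 lowest KD changes among called genes with groups apart, up to 6 called members of each list by size of change (or the brightest member), the 15 highest and 15 lowest strain differences, genes called in opposite directions and the 15 highest WT changes. Ccl5, Cxcl10, Ifnb1, Nos2, Csf1r, Acta2, Jun, Jund, Ier5, Atf3, Cebpd, Frrs1, Maff, Mefv, Mir155hg and Mki67 were named outside that rule, after their values were seen. Alternatives were quantile normalization, scaling to the median, other filters and pseudocounts, no variance trend, a replicate block, fewer groups in the fit, a second probe set per gene and leaving out each array. List counts with an array left out and under other scalings were added after the data were seen. Promoter windows came from RefSeq (GRCm38.p6).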

Additional observations from a re-analysis of the deposited data

Results flagged for a closer look

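The results given here were singled out because the 1 h response to LPS differed between KD and WT cells by limma's test of the difference itself, which called 91 probe sets. Each value is the KD response minus the WT response on the log2 scale, with 2 arrays per group. Groups of 2 are too small for a check of single outlying arrays.

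Among the lower KD responses, the differences were -2.68 for Il1b, -2.51 for Cxcl5, -1.76 for Btg2, -1.37 for Csrnp1, -1.08 for Tnf, -1.07 for Arg2, -0.95 for Fos, -0.87 for Egr2, -0.85 for Tnip1 and -0.75 for Nfkbiz. Further differences were -3.88 for Scarf1, -1.05 for Cnih4, -1.02 for Uqcc2, -0.87 for Taf10, -0.87 for Zfas1 and -0.83 for Wsb2. Scarf1, Cnih4 and Uqcc2 were called in opposite directions in the strains, and the next probe set of Cnih4 gave a difference of -0.020. Those of Arg2 and Btg2 gave -0.69 and -0.86 and were not called, and that of Egr2 gave -1.34 and was called. With 1 array left out, the call of the difference held in 2 of the 12 fits for Csrnp1 and Tnip1. It held in 3 for Nfkbiz and in 4 for Scarf1, Zfas1 and Wsb2.

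Among the higher KD responses, the differences were 1.95 for Tnfrsf11b, 1.86 for Shox2, 1.86 for Gas1, 1.78 for Adam23, 1.76 for Mme, 1.603 for Serping1, 1.55 for Cobll1, 1.53 for Robo1, 1.52 for Tmem176b, 1.40 for Thbs2, 1.33 for Tpbg, 1.30 for Grem1, 1.29 for Defa31, 1.28 for Phldb2 and 1.20 for Prrx1. Smaller differences were 0.99 for Ifit2, 0.87 for Zfp36l1, 0.83 for Smndc1 and 0.73 for Ptgs2. With 1 array left out, the call held in only 1 of the 12 fits for Mme and in 2 for Tpbg, Phldb2 and Ifit2. It held in 3 for Defa31 and in 4 for Shox2. The next probe sets of Smndc1, Ptgs2 and Robo1 gave -0.13, -1.17 and -1.09 and were not called. Tnfrsf11b, the decoy receptor osteoprotegerin, had signals of 76.0 and 71.8 in KD cells after 1 h of LPS, 185 and 106 in unstimulated KD cells, 42.0 and 29.5 in WT cells after 1 h of LPS and 309.8 and 251 in unstimulated WT cells. Its signals after LPS were lower than those without LPS in both strains. The probe set of Defa31 can match other transcripts.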

How the results depend on the processing

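By limma, the 1527 calls of the KD response became 506 without the variance trend and 805 in a fit of the 4 KD arrays alone, and the 1709 of the WT response became 487 without the trend. The 91 calls of the strain difference became 142 after quantile normalization, 52 without the filter, 156 with a stricter filter, 39 in a fit of the 8 arrays without LPS and at 1 h, and 0 without the trend, where 2430 had an unadjusted p under 0.05. Leaving out 1 array at a time gave 818 to 1567 calls for KD, 739 to 1932 for WT and 15 to 242 for the difference. The WT count was 739 and 929 with replicate 1 or replicate 2 of WT unstimulated left out, and 829 with WT LPS 1 h replicate 2 left out.

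The replicate numbers did not pair the samples (correlations of deviations -0.0682 to 0.0401 over 15 pairs of groups), and a replicate block gave 1462, 1631 and 119 calls.

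Of 161 named genes, the KD result kept its direction and side of the threshold in 159 after quantile normalization, 154 with arrays scaled to the same median, 157 with a pseudocount of 1, 105 without the trend and 118 with the 4 KD arrays alone. Of 1932 results with 1 array left out, 1740 did so and 189 lost the call. For the strain difference, 235 of 420 did so. A second probe set was tested for 74 of the genes: 32 gave the same result, 33 lost the call and 8 reversed, with log2 changes of 0.047 for Ly6e, 0.28 for Mir99ahg, -0.49 for Mmp14, -0.043 for Robo1, -0.048 for Smndc1, 0.12 for Tlr4, 0.084 for Txnrd3 and 0.77 for Wsb2, none of which was called. The cause was not tested. With 2 arrays per group, small changes and dim genes are limited by the spread between arrays, and the calls depend on the variance prior shared across probe sets.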

Other observations

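Genes outside the lists also moved in KD cells. Angpt1, a ligand of the endothelial receptor Tie2, had signals of 91.8 and 81.0 in KD cells after 1 h of LPS and 17.2 and 2.8 in unstimulated KD cells, a log2 change of 2.86 ± 0.43 (SE, adjusted p = 3.28e-04) by limma. Nav3, a neuron navigator protein, had 57.5 and 59.0 after 1 h of LPS and 2.5 and 7.6 without (log2 change 2.78 ± 0.42 SE, adjusted p = 3.47e-04). Both were dim without LPS. Among the genes that fell, Tut1, a terminal uridylyltransferase, had 12.7 and 8.3 after 1 h of LPS and 65.4 and 36.7 without (log2 change -1.86 ± 0.50 SE, adjusted p = 0.033).

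Of the genes with large KD decreases, Txnip, Tmeff1, Ret and Map3k1 were also called lower in WT cells, with log2 changes of -1.58, -1.22, -2.22 and -1.37. Socs3 and Nlrp3 were called higher in both strains, with 3.19 and 2.61 in KD cells and 4.81 and 3.75 in WT cells. The strain difference of neither gene was called. The other 2 probe sets of Socs3, which were brighter and can match other transcripts, gave strain differences of 1.14 and -0.74, neither of them called.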
